A study of Mus musculus with 24 samples.

Results

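Whole-liver RNA collected 96 h after an acetaminophen (APAP) overdose was compared with RNA from untreated livers at 0 h, to ask which transcripts were still away from their starting level at recovery and which were back. The members of this comparison were chosen by time point from the sample labels, and they took in 10 of the 24 libraries of the series. At 96 h there were 2 libraries, 1 control and 1 LKO, and each held the RNA of 3 mice pooled after an intraperitoneal dose of 300 mg/kg APAP. At 0 h there were 8 libraries from single, fasted mice that received no APAP, 4 control and 4 LKO. All mice were males of 2.5 months on a mixed, mainly FVB background with floxed E2f7 and E2f8 alleles and the R26R mTmG reporter, and all were fasted for about 16 h. LKO (liver-specific knockout, labelled KO) mice also carried Alb-Cre, which is driven by the albumin promoter and acts in liver cells from before birth, whereas controls (labelled WT) were littermates lacking Cre. Deletion of the transcription factors E2f7 and E2f8 in this way leaves a liver of mostly diploid hepatocytes. Because the feeding state of the mice before the 96 h harvest was not given in the sources used here, time after APAP and feeding state cannot be told apart, and only mice alive at 96 h could enter the pools.

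APAP is converted by cytochrome P450 enzymes of pericentral hepatocytes, the cells around the central vein, into a reactive product that depletes glutathione and kills these cells. Surviving hepatocytes then enter the cell cycle while macrophages clear debris, stellate cells lay down a transient matrix, and the pericentral programme, which depends on Wnt/β-catenin signalling, is rebuilt. Fasting and feeding act on the same tissue: fasting raises gluconeogenic and fatty acid oxidation genes, and feeding raises sterol and fatty acid synthesis through SREBP transcription factors.

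Each library held 12665686 to 19046197 reads counted on genes, and 24411 genes were listed in every file. The hepatocyte transcript Alb was at 25664 to 81130.0 CPM (counts scaled to the depth of each library) at 0 h and at 70996 and 64259 CPM in the control and LKO pools, so this defining marker of liver was abundant in every library. Of the reads at 0 h, 4.107% to 20.64% did not map, against 2.804% and 5.03% in the pools; their part in the results was not tested. E2f7 had 0 to 7 counts in every library. E2f8 stood at 18.3, 17.7, 15.7 and 11.4 CPM in control livers and 21.5, 25.8, 33.0 and 17.3 CPM in LKO livers at 0 h, and at 8.48 and 16.0 CPM in the control and LKO pools. It was thus not lower in the livers labelled LKO; a gene-level count also takes reads from exons outside the floxed segment, so it does not check the deletion.

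A gene was called where edgeR's quasi-likelihood test gave a Benjamini-Hochberg adjusted p under 0.05 and the fold change was at least 1.5, in a fit with genotype as a covariate. Of 13486 genes tested, 90 were called (0.667%), 62 higher at 96 h (0.460%) and 28 lower (0.208%). The median log2 fold change of all genes was -0.016, and 2444 genes had an unadjusted p under 0.05. Both pools lay above all 8 livers at 0 h for 951 genes (7.05%) and below all 8 for 987 genes (7.32%), and 87 of the 90 called genes were among these. Return to the starting level was read from intervals instead of from missing calls: for 3448 genes (25.6%) the whole 95% interval of the fold change lay within 1.5-fold of 0 h, and for 8541 genes it lay within 2-fold. The remaining 9948 genes were neither called nor held within 1.5-fold. Of the called genes, 27 belonged to at least 1 of 40 gene lists for pathways and cell types and 63 to none, and 33 of the changes were under 2-fold.

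The earlier time points, each compared with the same 0 h livers in a fit over 18 libraries, had far more calls. Of 14421 genes, that fit called 4412 (30.6%), 3590 (24.9%), 2297 (15.9%) and 2369 (16.4%) at 12, 24, 48 and 72 h. For 96 h the same fit called 55 genes (0.381%), 41 higher and 14 lower. The 5 counts share the 0 h livers and are given side by side, and a fold change at an earlier time averages both genotypes.

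**Figure D1:**
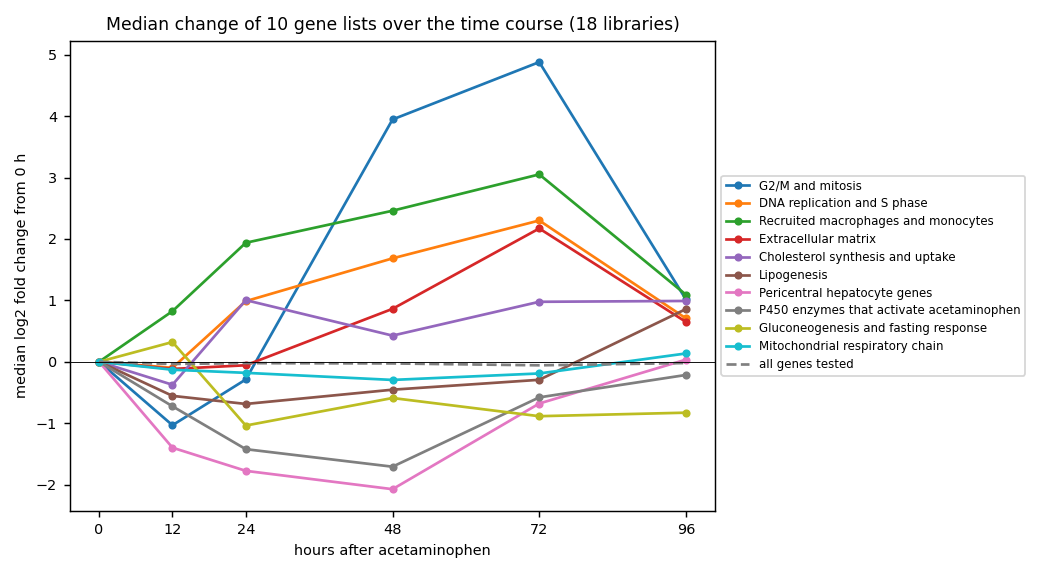
Median log2 fold change from 0 h (vertical axis) of 10 gene lists against hours after APAP (horizontal axis), from 1 fit over 18 libraries with 2 pools at each time after 0 h; the dashed line is the median of all genes tested. The G2/M list stood at 4.88 at 72 h and 1.01 at 96 h, and the pericentral list passed from -2.07 at 48 h to 0.04 at 96 h.

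The count of 90 depended on single libraries. It was 27 and 19 without control 0 h replicates 1 and 2, 34 and 18 without LKO 0 h replicates 2 and 3, 16 without the control pool and 10 without the LKO pool, and it lay between 64 and 92 without each of the other 4. Of the 90 genes, 7 were still called without the control pool and 7 without the LKO pool. Slc1a2 was the one gene called in all 10 of these fits, and 14 genes were called in each of the 8 fits that left out a liver at 0 h. DESeq2 in place of edgeR called 525 genes, 257 higher and 268 lower. With 1 pool per genotype, a pool was assumed to vary like a single mouse.

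Slc1a2, which encodes a glutamate transporter of the hepatocytes next to the central vein, had the smallest p of all genes and the one call that no left-out library ended (chr2:102658659-102790784, mm10, plus strand). Its levels were 101, 136, 119 and 123 CPM in control livers and 120.5, 91.7, 117 and 95.3 CPM in LKO livers at 0 h, and 8.48 and 8.00 CPM in the control and LKO pools. The groups were far apart and both pools lay at nearly the same level. Slc1a2 fell 13.7-fold (log2 fold change -3.77 ± 0.16 (SE), 95% interval -4.12 to -3.42, adjusted p = 3.74e-06). At 12, 24, 48 and 72 h its log2 fold changes from 0 h were -4.85, -7.17, -8.51 and -6.91, and from 72 to 96 h it rose (log2 fold change 3.12 ± 0.67, adjusted p = 0.0171). Transcripts were thus partly back and still well below the start in both genotypes. In the fits without a pool its log2 fold change was -3.73 (adjusted p = 0.000524) without the control pool and -3.82 (adjusted p = 0.000973) without the LKO pool.

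Of 22 tested members of the pericentral list, Slc1a2 fell, 2 rose and 19 were not called, whereas 0.667% of all genes were called, and the list's median was 0.03. The list's medians at 12, 24, 48 and 72 h were -1.4, -1.78, -2.07 and -0.68. The members that rose were Rgn and Lect2. Rgn, which encodes regucalcin, a calcium-binding protein, was at 1084, 848, 819 and 929.5 CPM in control livers, 650.4, 811, 811 and 933 CPM in LKO livers, and 1866 and 1385 CPM in the control and LKO pools (log2 fold change 0.91 ± 0.17, adjusted p = 0.0373). Both pools were above every liver at 0 h. Lect2, a secreted chemotactic protein and a β-catenin target in liver, stood at 51.7 to 85.9 CPM at 0 h and at 176 and 104 CPM in the pools (1.0 ± 0.18, adjusted p = 0.0332).

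Glul, the glutamine synthetase that marks the innermost pericentral layer, lay below all 8 livers in both pools without passing the test. Its 0 h range was 404 to 563 CPM, the pools were at 363 and 223 CPM, and the log2 fold change was -0.71 ± 0.19 (adjusted p = 0.113). The 7 P450 genes that activate APAP gave no call, against 0.667% of all genes, with a median of -0.22. Cyp2e1, the main activating enzyme, was at 4786 to 9466 CPM at 0 h and at 6687 and 4032 CPM in the pools, with a log2 fold change of -0.51 ± 0.21 (interval -0.97 to -0.05, adjusted p = 0.251). For Cyp1a2, another activating enzyme, the interval of -0.35 to 0.38 lay within 1.5-fold of 0 h, whereas at 24 h its log2 fold change had been -2.96. Periportal and urea cycle genes gave no call among 16 tested, and 6 of them were held within 1.5-fold (25.6% of all genes); Cps1, which catalyses the first step of the urea cycle, was among these with an interval of -0.41 to 0.49.

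**Figure D2:**
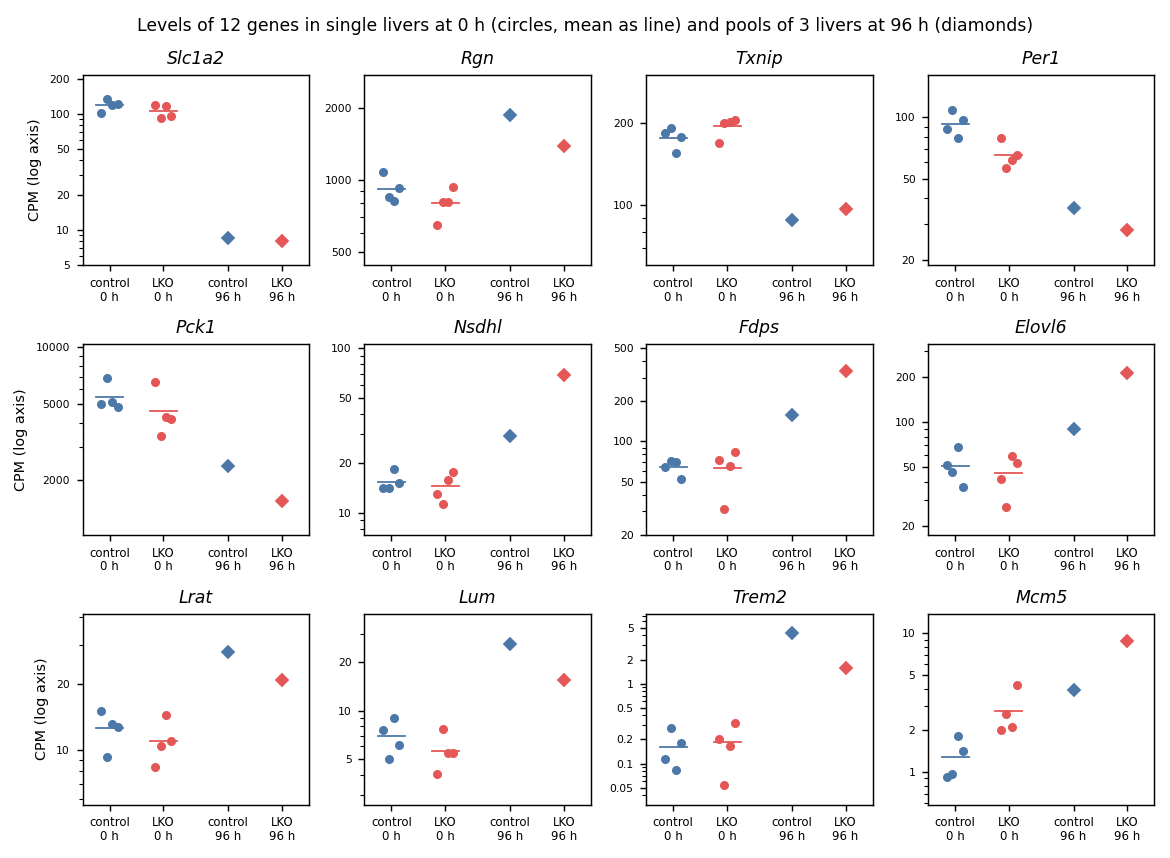
CPM on a logarithmic axis for 12 genes (panels) in single livers at 0 h (circles, with the group mean as a line) and in the pools of 3 livers at 96 h (diamonds), control in blue and LKO in red. Both pools lie below all 8 livers for Slc1a2, Txnip, Per1 and Pck1, above all 8 for Rgn, Nsdhl, Fdps, Elovl6, Lrat, Lum and Trem2, and for Mcm5 the control pool lies within the LKO 0 h range.

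Of the 40 gene lists, that of sterol synthesis held the most calls. Of 24 tested genes for cholesterol synthesis and uptake, 6 rose, against 0.460% of all genes, none fell and 18 were not called, and in 16 both pools lay above all 8 livers at 0 h, against 7.05% of all genes. The median log2 fold change was 1.01, and the list's own medians were 0.56 for the control pool and 1.51 for the LKO pool. The 6 genes were Mvk and Pmvk, the kinases that phosphorylate mevalonate and phosphomevalonate, Fdps, the synthase of farnesyl pyrophosphate, Sqle, the squalene epoxidase, and Msmo1 and Nsdhl, which remove methyl groups from the sterol ring. Promoters of the mevalonate kinase and of both demethylation genes are shown because genes of this pathway are known to share binding sites for SREBP and for the CCAAT-binding factor NF-Y. The sequences are 250 bases before to 50 after the start, from RefSeq on GRCm38.p6 and read 5′ to 3′ on the gene's strand; capitals mark each CCAAT on either strand (ATTGG on the opposite one). Mvk lies at chr5:114444019-114444318 on the plus strand, Nsdhl at chrX:72918271-72918570 on the plus strand and Msmo1 at chr8:64733529-64733828 on the minus strand.
Mvk: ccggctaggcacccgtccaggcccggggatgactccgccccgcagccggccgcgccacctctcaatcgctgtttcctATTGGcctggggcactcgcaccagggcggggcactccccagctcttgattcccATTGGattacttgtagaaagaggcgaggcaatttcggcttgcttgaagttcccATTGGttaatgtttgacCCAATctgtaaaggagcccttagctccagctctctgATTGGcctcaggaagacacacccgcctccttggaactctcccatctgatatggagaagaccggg
Nsdhl: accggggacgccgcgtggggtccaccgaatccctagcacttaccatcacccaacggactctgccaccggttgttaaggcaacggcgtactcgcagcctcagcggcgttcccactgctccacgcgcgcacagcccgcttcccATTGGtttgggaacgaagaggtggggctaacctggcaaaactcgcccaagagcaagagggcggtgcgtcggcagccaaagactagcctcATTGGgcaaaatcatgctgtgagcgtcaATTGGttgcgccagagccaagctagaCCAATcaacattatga
Msmo1: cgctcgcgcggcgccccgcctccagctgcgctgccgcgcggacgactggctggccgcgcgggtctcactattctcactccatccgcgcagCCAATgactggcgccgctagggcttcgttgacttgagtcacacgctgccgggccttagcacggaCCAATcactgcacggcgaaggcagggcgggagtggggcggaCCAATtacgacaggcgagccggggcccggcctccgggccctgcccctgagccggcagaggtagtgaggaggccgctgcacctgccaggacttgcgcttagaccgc

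In these windows Mvk had 5 CCAAT matches, Nsdhl 4 and Msmo1 3. The first base of the matches lay at -173, -120, -67, -50 and -14 from the start in Mvk, at -109, -20, 9 and 35 in Nsdhl, and at -160, -96 and -55 in Msmo1. All 16 genes of the sterol list with a promoter entry held at least 1 CCAAT, against 42.5% of the genes tested and 41.1% of 27025 genes with an entry. The longer sterol element TCACNCCAC was found in 1 of the 16 (6.25%), against 1.52% of the genes tested and 1.44% of all genes. Both strands were searched, both motifs can share an end base, and a match describes the window and is no measure of binding.

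Nsdhl was at 14.1, 14.2, 18.5 and 15.3 CPM in control livers and 13.1, 11.2, 15.9 and 17.7 CPM in LKO livers at 0 h, and at 29.3 and 69.3 CPM in the control and LKO pools. The pools were clear of the 0 h range, and the LKO pool was the higher. Nsdhl rose 3.21-fold (log2 fold change 1.68 ± 0.26, adjusted p = 0.0166), and its log2 fold changes at 12, 24, 48 and 72 h were -1.15, 1.65, 1.19 and 1.6. Fdps was at 64.4, 71.7, 70.4 and 52.8 CPM in control livers, 72.6, 31.5, 65.5 and 83.6 CPM in LKO livers, and 158 and 339 CPM in the pools (log2 fold change 1.92 ± 0.31, adjusted p = 0.0186). The mevalonate kinase gene Mvk, whose promoter is printed above, was at 10.6 to 14.0 CPM at 0 h and at 18.8 and 32.3 CPM in the pools (0.98 ± 0.17, adjusted p = 0.0332). Msmo1 moved by 1.77 ± 0.30 (adjusted p = 0.0228), Pmvk by 1.58 ± 0.33 (adjusted p = 0.0407) and Sqle by 2.04 ± 0.45 (adjusted p = 0.0471).

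Insig1, which holds SREBP in the endoplasmic reticulum and was among the most abundant uncalled members of the sterol list, had a log2 fold change of 1.03 ± 0.35 (adjusted p = 0.14). Without the LKO pool none of the 6 genes was called, with log2 fold changes from 0.61 (Mvk, adjusted p = 0.197) to 1.4 (Msmo1, adjusted p = 0.146). Without the control pool Fdps, Mvk and Nsdhl kept their calls while Msmo1, Pmvk and Sqle did not. For Nsdhl the log2 fold change was 2.26 (adjusted p = 0.00304) without the control pool and 0.91 (adjusted p = 0.141) without the LKO pool.

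Fatty acid synthesis also draws on factors of the SREBP family. Of 20 lipogenesis genes tested, Elovl6 rose, Txnip fell and 18 were not called, against 0.667% of all genes called, with a median of 0.85 and own medians of 0.25 in the control pool and 1.39 in the LKO pool. Elovl6, an elongase of long-chain fatty acids, was at 51.7, 46.5, 68.6 and 36.5 CPM in control livers, 41.9, 27.2, 59.3 and 53.3 CPM in LKO livers, and 90.7 and 215 CPM in the pools (log2 fold change 1.64 ± 0.33, adjusted p = 0.0407). At 72 h its pools were at 23.3 and 65.6 CPM, and at 96 h its log2 fold change was 2.24 (adjusted p = 0.048) without the control pool and 0.83 (adjusted p = 0.288) without the LKO pool. Fasn, the fatty acid synthase, was at 343 CPM in the control pool, inside the 0 h range of 160.5 to 361 CPM, and at 1228 CPM in the LKO pool (1.54 ± 0.35, adjusted p = 0.0599). Acly, which supplies cytosolic acetyl-CoA, was at 180.4 and 517 CPM in the pools against 132 to 172 CPM at 0 h (1.12 ± 0.25, adjusted p = 0.0591). Without the control pool both would have passed, with log2 fold changes of 2.22 for Fasn (adjusted p = 0.048) and 1.75 for Acly (adjusted p = 0.00338), and without the LKO pool these were 0.57 and 0.26. Scd1, the stearoyl-CoA desaturase, ranged over 918 to 3918 CPM in single livers at 0 h, and its pools were at 2954 and 8276 CPM (adjusted p = 0.198).

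Txnip, which encodes an inhibitor of thioredoxin and of glucose uptake (chr3:96557957-96561883, mm10, plus strand), was at 183, 191, 155 and 177 CPM in control livers and 169, 199.5, 201 and 205 CPM in LKO livers at 0 h, and at 88.2 and 96.8 CPM in the control and LKO pools. Both pools were well below the lowest liver. Txnip fell 2.00-fold (log2 fold change -1.0 ± 0.14, adjusted p = 0.0168). At 12, 24, 48 and 72 h the control pools held Txnip at 143, 325, 262 and 89.3 CPM and the LKO pools at 122, 67.9, 54.5 and 100.1 CPM, so that at 24 and 48 h the control pools lay above all livers at 0 h and the LKO pools below them. At 96 h its log2 fold change was -1.0 (adjusted p = 0.155) without the control pool and -1.0 (adjusted p = 0.1) without the LKO pool. Pck1, the gatekeeper enzyme of gluconeogenesis, was at 5033, 6874, 5153 and 4861 CPM in control livers, 6574, 3409, 4296 and 4173 CPM in LKO livers, and 2384 and 1559 CPM in the pools (log2 fold change -1.38 ± 0.23, adjusted p = 0.0407). It was the 1 member called among 16 gluconeogenesis and fasting genes, against 0.208% of all genes called lower, and their median was -0.80; Fbp1, a later enzyme of the same pathway, was held within 1.5-fold (-0.21 to 0.50), while Tat, the tyrosine aminotransferase, spread over 1682 to 6656 CPM at 0 h.

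Among 28 targets of PPARα, the nuclear receptor of fasting fat oxidation, Angptl4 fell, against 0.208% of all genes, and 27 were not called, with 6 held within 1.5-fold (25.6% of all genes) and a median of -0.28. Angptl4, a secreted inhibitor of lipoprotein lipase, was at 248 to 352 CPM at 0 h and at 154 and 116 CPM in the pools (-1.07 ± 0.16, adjusted p = 0.026). Retsat, a retinol saturase, and Ppp1r3g, a glycogen-targeting subunit of protein phosphatase 1, were among the 12 largest decreases outside these lists. Retsat went from 389 to 782 CPM to 207 and 241 CPM (-1.43 ± 0.24, adjusted p = 0.0407). Ppp1r3g went from 30.7 to 83.1 CPM to 12.1 and 13.3 CPM (-2.21 ± 0.35, adjusted p = 0.0383).

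In the circadian clock, 1 of 20 genes was called, against 0.667% of all genes. Per1, a repressor of the clock's CLOCK-BMAL1 activator and also an early responder to glucocorticoids and fasting signals, was at 87.5, 108, 79.5 and 96.9 CPM in control livers, 78.7, 56.3, 61.6 and 65.5 CPM in LKO livers, and 35.9 and 28.1 CPM in the control and LKO pools. Per1 fell 2.46-fold (log2 fold change -1.30 ± 0.16, adjusted p = 0.0134), and both pools were below all 8 livers. Its log2 fold changes had been 1.43, 0.19, -0.51 and -1.18 at 12, 24, 48 and 72 h. A promoter entry is shown because CLOCK-BMAL1 acts through E-boxes. It is the first Per1 entry by position that holds CACGTG, so the match was fixed by that choice. The entry lies at chr11:69098699-69098998 on the plus strand (GRCm38.p6), inside the gene, which begins at 69095217. The match is in capitals and begins at -166 from the start site of this entry.
Per1: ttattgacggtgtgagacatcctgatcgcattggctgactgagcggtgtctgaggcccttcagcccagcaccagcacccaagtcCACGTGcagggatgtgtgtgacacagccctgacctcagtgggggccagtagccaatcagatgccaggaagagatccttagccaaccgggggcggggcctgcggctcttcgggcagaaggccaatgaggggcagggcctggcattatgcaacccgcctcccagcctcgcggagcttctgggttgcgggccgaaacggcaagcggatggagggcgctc

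CACGTG, which reads the same on both strands, was present in 5 of 22 called lower genes with a promoter entry (22.7%), in 5 of 16 clock genes (31.2%), in 11.5% of the genes tested and in 8.09% of all genes. Nr1d1, which encodes the clock repressor REV-ERBα, also lay below the 0 h range in both pools (68.9 and 131 against 175 to 285 CPM), and its log2 fold change of -1.13 ± 0.22 missed the threshold (adjusted p = 0.0565). The hour of day at which the livers were taken was not given in the sources used here, so time after APAP and hour of day cannot be told apart. Without a pool the log2 fold change of Per1 was -1.22 (adjusted p = 0.141) without the control pool and -1.38 (adjusted p = 0.0713) without the LKO pool.

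The lists for matrix and for stellate cells gave 3 calls, all higher. Of 30 extracellular matrix genes tested, Lum and Sparc rose and 28 were not called, with a median of 0.65; in 13 of the 30 both pools lay above all 8 livers at 0 h, against 7.05% of all genes, and 0.460% of all genes were called higher. Lum, the collagen-binding proteoglycan lumican, was at 7.60, 4.99, 8.99 and 6.11 CPM in control livers, 4.02, 7.65, 5.46 and 5.46 CPM in LKO livers, and 26.0 and 15.4 CPM in the pools (log2 fold change 1.69 ± 0.25, adjusted p = 0.0139). Sparc, a matrix glycoprotein, had a narrow 0 h range of 53 to 69.0 CPM and pools at 109.6 and 100.5 CPM (0.77 ± 0.13, adjusted p = 0.0282). Col1a1 and Col3a1, the fibrillar collagens, were not called at 96 h (0.94 ± 0.28, adjusted p = 0.119, and 1.30 ± 0.29, adjusted p = 0.0541), after log2 fold changes of 4.5 and 3.77 at 72 h. In whole liver, more cells of a type and more RNA per cell cannot be told apart.

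Of 17 markers of stellate cells and myofibroblasts, Lrat rose, against 0.460% of all genes, and 16 were not called, with a median of 0.68 and both pools above the 0 h livers in 8, against 7.05% of all genes. Summed over the list the level was 221 to 363 CPM at 0 h, 392 CPM in the control pool and 412 CPM in the LKO pool. Lrat, the enzyme that forms the retinyl esters stored by stellate cells, went from 8.38 to 15.0 CPM to 28 and 20.7 CPM (1.04 ± 0.21, adjusted p = 0.0407). The galectin gene Lgals1 had a log2 fold change of 1.71 ± 0.36 (adjusted p = 0.041) and was named after its values were seen.

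Of 17 tested markers of recruited macrophages, Gpnmb, Trem2 and Ccr2 rose, against 0.460% of all genes, and 14 were not called, with a median of 1.22. Gpnmb and Trem2 passed the count filter only through the 96 h pools, where they are high, so this tally is descriptive. Gpnmb, a glycoprotein of lipid-laden phagocytes, was at 0.0572, 0, 0.0832 and 0.237 CPM in control livers, 0, 0.0535, 0 and 0.212 CPM in LKO livers, 11.9 CPM in the control pool and 1.16 CPM in the LKO pool. Both pools were above the 0 h range, the control pool by far the more (log2 fold change 5.74 ± 0.84, adjusted p = 0.00741). At 72 h the pools had been at 107 and 117 CPM, and the fall from 72 to 96 h was -4.49 ± 0.60 on the log2 scale (adjusted p = 0.0028). Trem2, a lipid receptor of the same cells, was at 0.0535 to 0.318 CPM at 0 h and at 4.31 and 1.58 CPM in the pools (3.91 ± 0.54, adjusted p = 0.01). Ccr2, the chemokine receptor by which monocytes enter tissue, was at 0.530 to 1.08 CPM at 0 h and at 2.12 and 2.47 CPM in the pools (1.67 ± 0.34, adjusted p = 0.0407). Spp1, which encodes osteopontin and is an abundant member of the list, was at 27.0 to 64.1 CPM at 0 h and at 14.8 and 16.2 CPM in the pools, below all 8 livers and without a call (-1.51 ± 0.28, adjusted p = 0.0533). For Gpnmb, the log2 fold change was 3.91 (adjusted p = 0.436) without the control pool and 6.81 (adjusted p = 0.0138) without the LKO pool. For Trem2 it was 3.05 (adjusted p = 0.24) without the control pool and 4.64 (adjusted p = 0.0392) without the LKO pool. The list summed to 89.4 to 165 CPM at 0 h, 281 CPM in the control pool and 136 CPM in the LKO pool.

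The lists for the other cell types gave no call, against 0.667% of all genes. The 15 Kupffer cell markers had own medians of 0.96 in the control pool and -0.31 in the LKO pool, and summed to 621 to 1380.1 CPM at 0 h, 1057 CPM in the control pool and 580.3 CPM in the LKO pool; Clec4f, a lectin found on Kupffer cells alone in liver, was at 57.9 to 164 CPM at 0 h and 146 and 68.3 CPM in the pools. The 8 neutrophil markers tested had own medians of 0.62 in the control pool and -0.86 in the LKO pool, and the 14 lymphocyte markers of 0.46 and -0.27. Of 18 sinusoidal endothelial markers, 4 were held within 1.5-fold, against 25.6% of all genes, and in 8 both pools lay below all livers at 0 h, against 7.32% (median -0.35). Vwf, the von Willebrand factor made by the endothelium of larger vessels, was one of the 12 largest decreases, from 5.83 to 9.49 CPM to 2.32 and 2.69 CPM (-1.58 ± 0.23, adjusted p = 0.0225). The 12 bile duct markers tested had a median of -1.05 and summed to 36.4 to 49.5 CPM at 0 h, 25.2 CPM in the control pool and 40.6 CPM in the LKO pool, with 5 below the 0 h range in both pools (7.32% of all genes). Of markers of red cells and of pancreas, fat and mesothelium, 1 and 3 were tested and none was called.

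**Figure D3:**
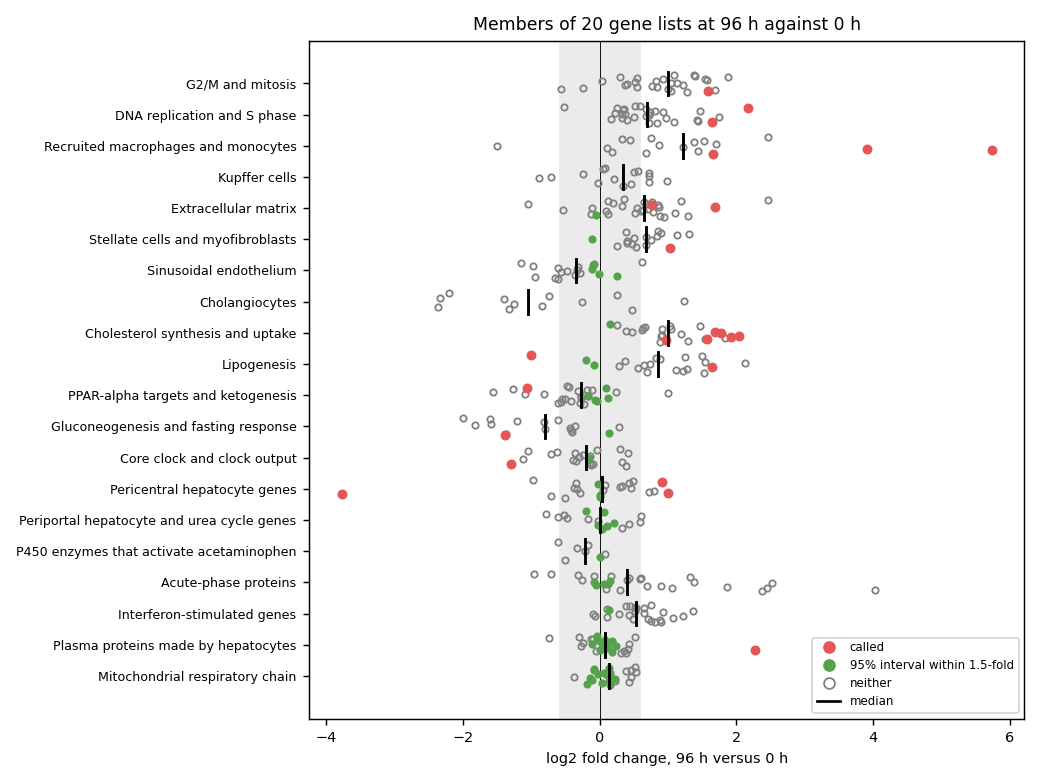
Log2 fold change at 96 h against 0 h (horizontal axis) for the tested members of 20 gene lists (rows); red points are called genes, green points have a 95% interval within 1.5-fold, open points are neither, black bars are list medians and the grey band spans 1.5-fold in each direction. Red points cluster in the sterol list (6 of 24), and green points in the respiratory chain list (15 of 23) and the plasma protein list (13 of 28).

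Cell cycle transcripts had come down from their peak and were not all at the start. Of 30 DNA replication genes, Mcm5 and Uhrf1 rose, against 0.460% of all genes, and 28 were not called, with a median of 0.70 at 96 h and 2.30 at 72 h. Of 27 mitotic genes tested, Top2a rose, against the same 0.460%, and 26 were not called, with a median of 1.01, after 4.88 at 72 h. All 27 were called lower between 72 and 96 h, against 2.06% of all genes. Mcm5 encodes a subunit of the replicative helicase, and Uhrf1 a protein needed for copying DNA methylation onto new strands. Both are known E2F targets, so their promoters are shown with each TTTNNCGC (an E2F site, either strand) in capitals. Mcm5 lies at chr8:75109259-75109558 and Uhrf1 at chr17:56303087-56303386, both on the plus strand of GRCm38.p6.
Mcm5: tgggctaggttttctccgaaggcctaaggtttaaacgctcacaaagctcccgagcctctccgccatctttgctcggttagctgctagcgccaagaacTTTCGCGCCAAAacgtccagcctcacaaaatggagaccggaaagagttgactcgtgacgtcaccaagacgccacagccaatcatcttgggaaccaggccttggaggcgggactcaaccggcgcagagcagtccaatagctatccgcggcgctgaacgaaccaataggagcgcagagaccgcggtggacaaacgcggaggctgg
Uhrf1: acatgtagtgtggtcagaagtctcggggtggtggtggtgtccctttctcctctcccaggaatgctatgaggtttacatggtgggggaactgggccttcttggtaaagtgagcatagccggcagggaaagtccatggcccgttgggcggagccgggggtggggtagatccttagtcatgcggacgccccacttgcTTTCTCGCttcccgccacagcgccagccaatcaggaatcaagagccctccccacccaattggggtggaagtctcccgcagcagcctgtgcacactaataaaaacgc

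Mcm5 had 2 overlapping matches beginning at -153 and -149 and Uhrf1 had 1 at -56. Of 25 replication genes with an entry, 10 held the motif (40%), against 9.39% of the genes tested and 5.93% of all genes. Mcm5 was at 0.915, 0.970, 1.83 and 1.42 CPM in control livers and 2.01, 2.62, 2.12 and 4.24 CPM in LKO livers at 0 h, and at 3.90 and 8.85 CPM in the control and LKO pools. Levels at 0 h were already higher in LKO livers, so that the control pool fell inside the LKO 0 h range while each pool was above its own genotype (log2 fold change 1.65 ± 0.33, adjusted p = 0.0407). Uhrf1 was at 0.343, 0.416, 0.250 and 0.653 CPM in control livers, 1.88, 1.18, 0.836 and 2.6 CPM in LKO livers, and 1.57 and 8.42 CPM in the pools, with the same overlap (2.18 ± 0.41, adjusted p = 0.0354). Top2a, the topoisomerase that untangles chromosomes, was at 0.485 to 2.28 CPM at 0 h and at 2.53 and 5.32 CPM in the pools (1.59 ± 0.33, adjusted p = 0.0407), after 50.6 and 52.7 CPM at 72 h. In the fits without a pool, Mcm5 was at 1.68 (adjusted p = 0.296) without the control pool and 1.61 (adjusted p = 0.155) without the LKO pool.

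Neither the 18 cyclins, CDKs and brakes of G1 nor the 15 p53 targets gave a call, against 0.667% of all genes (medians -0.09 and -0.27). Of these lists 3 and 1 members were held within 1.5-fold, against 25.6% of all genes. Ccnd1, cyclin D1, was at 53.9 CPM in the control pool, above all livers at 0 h (15.5 to 40.2 CPM), and at 18.5 CPM in the LKO pool, within their range (0.50 ± 0.37, adjusted p = 0.494). Pcna, the replication clamp, had a log2 fold change of 0.50 ± 0.25 (adjusted p = 0.312). Cdkn1a, the CDK inhibitor p21, spread over 1.17 to 31.7 CPM in single livers at 0 h, and both pools (2.94 and 2.90 CPM) lay inside that range. E2f8 itself had a log2 fold change of -0.75 ± 0.24 (adjusted p = 0.156).

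None of 27 acute-phase genes, 25 interferon-stimulated genes, 20 NRF2 targets, 20 ER stress genes, 10 cytosolic heat shock genes or 14 chemokines was called, against 0.667% of all genes, with medians of 0.41, 0.53, 0.24, -0.44, -0.52 and 0.32. At that share, lists of this size would often hold no call, so missing calls do not show a return to 0 h. Held within 1.5-fold were 5, 1, 0, 1, 0 and 0 members in the same order, against 25.6% of all genes. In 10 of the 25 interferon-stimulated genes both pools lay above all 8 livers, against 7.05% of all genes. Among 17 immediate-early genes there was 1 call, against 0.667% of all genes: Maff, a small MAF transcription factor, fell from 9.47 to 37.9 CPM to 8.95 and 3.79 CPM (-1.78 ± 0.27, adjusted p = 0.0332), after a log2 fold change of 3.87 at 12 h. Nqo1, the NRF2 target that reduces quinones, had a log2 fold change of 0.65 ± 0.33 (adjusted p = 0.299). Map3k8 and Ctnnb1, which encode a kinase upstream of JNK and β-catenin, were not called, Map3k9 had too few counts to be tested, and the interval of Ctnnb1 (-0.35 to 0.38) lay within 1.5-fold. Of 13 JNK pathway kinases tested, none was called and 6 were within 1.5-fold (25.6% of all genes).

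Serum amyloid transcripts separated the pools without a call. Saa1 was at 29.7, 207, 153 and 48.2 CPM in control livers, 658, 34.8, 24.3 and 53.5 CPM in LKO livers, 1462 CPM in the control pool and 40.2 CPM in the LKO pool (adjusted p = 0.395). Saa2 was at 2.73 to 171 CPM at 0 h and at 744 and 8.42 CPM in the control and LKO pools (adjusted p = 0.254), and shares near-identical sequence with Saa1, so reads may be split between them. Lcn2, lipocalin 2, stood at 1.66 to 32.2 CPM at 0 h and at 133 and 11.1 CPM (adjusted p = 0.21). All 3 were high in the control pool, within the 0 h range in the LKO pool and variable among the single livers, with LKO replicate 1 the highest at 0 h; they were named after their values were seen.

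Apoa4, an apolipoprotein of triglyceride-rich particles, was the 1 called gene of 28 plasma protein genes, against 0.667% of all genes. It was at 113, 74.7, 105 and 122 CPM in control livers, 83.2, 146, 93.0 and 96.1 CPM in LKO livers, 960.2 CPM in the control pool and 169 CPM in the LKO pool (log2 fold change 2.28 ± 0.41, adjusted p = 0.0354). At 12, 24, 48 and 72 h the control pools held 2751, 8176, 15753 and 6155 CPM and the LKO pools 2770.4, 3752, 1580.3 and 865 CPM. At 96 h the LKO pool was just above the highest liver and the control pool far above it. Without a pool its log2 fold change was 0.69 (adjusted p = 0.702) without the control pool and 3.21 (adjusted p = 0.00124) without the LKO pool. Another secreted protein, the thyroxine-binding globulin Serpina7 (chrX:139079257-139085236, mm10, minus strand), was at 10.2, 7.48, 12.4 and 16.1 CPM in control livers, 9.99, 21.6, 23.6 and 31.0 CPM in LKO livers, and 49.6 and 78.1 CPM in the pools (log2 fold change 1.98 ± 0.33, adjusted p = 0.0196). It was at 6.63 and 21.3 CPM at 72 h and rose from 72 to 96 h by 2.44 ± 0.46 (adjusted p = 0.0114).

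Of 21 genes of bile acid synthesis and transport, 1 was called, against 0.667% of all genes, and 5 were within 1.5-fold, against 25.6%. Abcb4, which moves phosphatidylcholine into bile, was at 285, 289, 319 and 347 CPM in control livers, 329, 349, 290.3 and 323 CPM in LKO livers, and 179 and 196 CPM in the pools. The groups were well apart although the change was small: Abcb4 fell 1.69-fold (log2 fold change -0.75 ± 0.14, adjusted p = 0.0407). Without a pool its log2 fold change was -0.72 (adjusted p = 0.467) without the control pool and -0.80 (adjusted p = 0.138) without the LKO pool.

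Genes whose level in liver differs between the sexes were also compared, since growth hormone and injury both act on them. Of 13 tested genes that are higher in female liver, A1bg rose, against 0.460% of all genes, and 12 were not called, and the own medians were 0.76 in the control pool and 3.05 in the LKO pool. None of 16 genes higher in male liver was called, and in no member did both pools fall outside the 0 h range. Their median was -0.84, with own medians of -0.55 in the control pool and -1.12 in the LKO pool. In 15 of the 16 the change was negative in both genotypes. The list summed to 14552 to 53391 CPM at 0 h, 18285 CPM in the control pool and 9016 CPM in the LKO pool. A1bg, α1B-glycoprotein, was at 0.229, 0, 0 and 0.356 CPM in control livers, 0.0671, 1.5, 0 and 0.477 CPM in LKO livers, and 2.32 and 11.9 CPM in the pools (4.23 ± 0.88, adjusted p = 0.0383). Its log2 fold change was 4.48 without the control pool and 3.80 without the LKO pool. It was called in 4 of the 10 fits that left out 1 library. Cyp2b9, a female-biased P450, was at 0 in 3 single livers and reached 140.1 CPM in another (adjusted p = 0.734). Xist, the transcript of the inactive X chromosome, had 0 to 7 counts at 0 h and 0 and 1 counts in the pools, and the Y-linked Ddx3y had at least 671 counts in each of the 10 libraries.

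The remaining decreases among the 12 largest came from genes of unlike function. Slc22a3, an organic cation transporter, went from 1.70 to 2.91 CPM to 0.478 and 0.316 CPM (-2.62 ± 0.37, adjusted p = 0.0149). Lamc3, a laminin chain, had a log2 fold change of -2.31 ± 0.33, Wsb1, a substrate receptor of a ubiquitin ligase, of -1.81 ± 0.30, Wnk4, a kinase that regulates ion transport, of -1.65 ± 0.26, and Plk3, a polo-like stress kinase, of -1.53 ± 0.27. Scara3, a scavenger receptor, and Hdc, the histidine decarboxylase, had log2 fold changes of -1.5 ± 0.26 and -1.44 ± 0.24. For each of these 7 genes both pools lay below all 8 livers, as for all 28 genes called lower, against 7.32% of all genes.

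Among the 12 largest increases, Chrna4, a nicotinic receptor subunit, was at 0.214 to 0.749 CPM at 0 h, 1.03 CPM in the control pool and 18.9 CPM in the LKO pool (4.15 ± 0.66, adjusted p = 0.0213). Its log2 fold change was 5.50 (adjusted p = 0.000524) without the control pool and 1.26 (adjusted p = 0.384) without the LKO pool. Ifi27l2b, an interferon-inducible gene with close paralogs, was at 1.5 to 4.98 CPM at 0 h and at 24.2 and 15.0 CPM in the pools (2.62 ± 0.40, adjusted p = 0.0139). Gm6484 and 9030619P08Rik, which have no settled function, had log2 fold changes of 2.09 ± 0.42 and 1.84 ± 0.39; counting ignored strand, so reads from overlapping or antisense genes cannot be told apart for them. Without the control pool the log2 fold change was 1.12 for Gm6484 and 0.82 for 9030619P08Rik. The latter, annotated as a transcribed pseudogene, was called in 0 of the 10 fits that left out 1 library. Gm773 was the 1 called gene without a read in any liver at 0 h, and it had 21 and 64 counts in the control and LKO pools, which is at least 6.06-fold and 14.2-fold higher than a floor of 3 counts in a single library. It was named after its values were seen.

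The share of genes held within 1.5-fold of 0 h differed from list to list. Of 23 respiratory chain genes, 15 were held within 1.5-fold and none was called (median 0.14). Of 28 plasma protein genes, 13 were held within 1.5-fold, beside the call of Apoa4. The shares of these lists within 1.5-fold exceeded the 25.6% of all genes, but the interval also narrows with expression level, which was not matched. Hnf4a, the central hepatocyte transcription factor, had an interval of -0.96 to -0.06 that did not meet the criterion, and 1 of 16 liver transcription factors did. The 13 genes of growth hormone and IGF1 signalling, the 16 tubulins and actins, the 18 iron and heme genes and the 6 fetal liver genes tested gave no call, with 3, 3, 4 and 0 within 1.5-fold.

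Between 72 and 96 h, 301 of 14421 genes were called (2.09%), 4 higher (0.0277%) and 297 lower (2.06%) in the fit over 18 libraries. The genes that rose were Slc1a2, Serpina7, Fasn (1.85 ± 0.44, adjusted p = 0.0444) and Slc30a10, a manganese exporter (1.23 ± 0.23, adjusted p = 0.00778), whose change from 0 h at 96 h was held within 1.5-fold (-0.35 to 0.40). The genes that fell included all 27 mitotic genes, 18 of 30 replication genes, 15 of 30 matrix genes and 10 of 17 recruited macrophage markers. Col1a1 fell by -3.54 ± 0.33 (adjusted p = 0.00016) from 192 and 71.7 CPM in the control and LKO pools at 72 h. Without 1 of the pools the count was 43 (control 72 h, 0 higher), 36 (control 96 h, 1 higher), 324 (LKO 72 h, 19 higher) or 69 (LKO 96 h, 4 higher), so none of the 4 rises was called without the control pool of 72 h. The 4 pools alone gave 158 genes higher and 661 lower, and DESeq2 gave 25 and 463.

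The change from 0 to 96 h was last compared between genotypes. The genotype by time term called 0 of 13486 genes (0%), with 702 at an unadjusted p under 0.05, a smallest adjusted p of 0.728 and 9 calls by DESeq2, among them Apoa4, Chrna4 and Acly. With 1 pool per genotype, the spread came from the 8 single livers alone. Apoa4 and Chrna4 had among the smallest p values: the log2 change of Apoa4 was 3.23 in control and 0.73 in LKO livers (difference -2.52 ± 0.46, adjusted p = 0.728), and that of Chrna4 was 1.12 and 5.21 (difference 4.22 ± 0.77, adjusted p = 0.728). Nsdhl moved by 0.92 and 2.27 (difference 1.34 ± 0.37, adjusted p = 0.915), while Slc1a2 (-3.79 and -3.70, difference 0.09 ± 0.33) and Txnip (-0.99 and -1.0) moved alike in size. Of the 90 called genes, 89 had a change of the same sign in both genotypes. The calls rest on the change averaged over these same pools, so this agreement is largely built into the selection. The exception, 4930404H11Rik, was named after its values were seen.

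**Figure D4:**
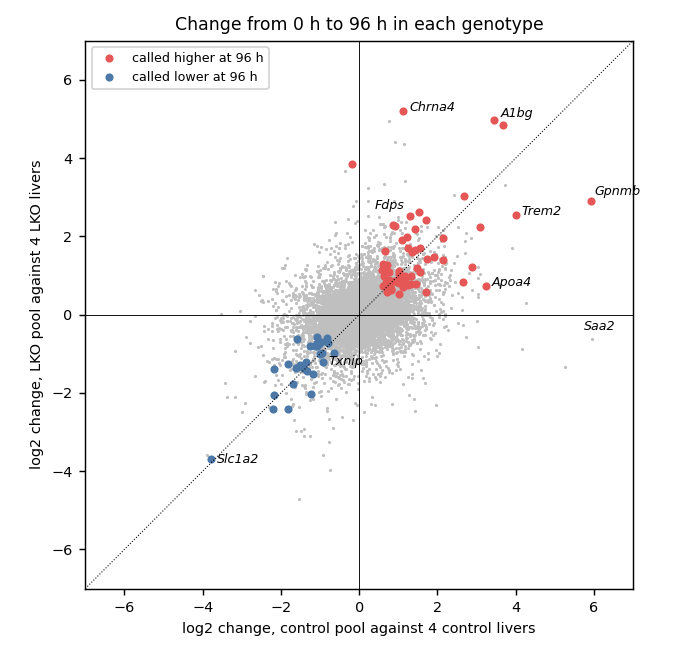
Log2 change from 0 to 96 h in the control pool (horizontal axis) and the LKO pool (vertical axis), each against its own 4 livers; red and blue points are genes called higher and lower, grey points are all other genes tested and the dotted line marks equal change. Slc1a2 sits near the line at -3.79 and -3.70, and Apoa4 (3.23 and 0.73) and Chrna4 (1.12 and 5.21) sit away from it on opposite sides.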

How the data were processed

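Liver polyA RNA was sequenced, and the authors, after trimming in Trimmomatic and alignment in STAR against mm10, deposited 1 table of gene counts per library, in which column 2 holds raw counts without regard to strand. The sources used here give no other filter. From these counts, the 4 summary rows that name no gene were dropped (unmapped, multimapping, ambiguous and outside genes, 20.385% to 39.932% of reads), and genes were kept by filterByExpr with its minimum count of 10. Counts were scaled by TMM and fitted with edgeR 4.0.16 (R 4.3.3) by the quasi-likelihood test, 96 h against 0 h with genotype as a covariate (7 residual degrees of freedom). Adjustment was by Benjamini-Hochberg over all genes tested, and a call needed a change of 1.5-fold or more with an adjusted p under 0.05, as in the study's methods. The genotype by time term was fitted on the same 10 libraries (6 degrees of freedom), and 96 h against 72 h on the 18 libraries of the LKO cohort (11 degrees of freedom). CPM are TMM-scaled, SEs are of log2 fold changes, and changes within 1 genotype compare log2 CPM computed with 2 prior counts, which shrinks those of rare transcripts. The depth gives a floor of 3 counts, or 0.158 to 0.237 CPM, for counting error only. The 0 h libraries were single mice and each 96 h pool was 1 library, so the p-values rest mostly on the spread between single mice, and for 96 h against 72 h also on the pools.

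Members and gene lists were chosen with earlier results of these data known. The genes named were the 12 largest called changes in each direction with a mean of at least 1 CPM, called members and abundant uncalled members of each list, genes the study names, and the largest changes from 72 h; others are marked, and some genes under this rule are not reported here. Alternatives were DESeq2 1.42.0, other scalings and filters, the stranded count columns, other sets of libraries, a block for the replicate number and leaving out each library. Scripts were tested on simulated data. Promoters were matched by symbol to RefSeq entries (64 of 90 called genes) and gene coordinates are those of GENCODE on mm10. Each printed promoter is the gene's first entry by position that holds the marked motif, so its having a match follows from that choice.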

Additional observations from a re-analysis of the deposited data

Results flagged for a closer look

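In each group of 4 livers at 0 h, a liver was singled out where its gap to the nearest other liver took up more of the group's range than Dixon's 95% limit, which chance does in about 1 of 20 groups. Of 174 pairs of a group and a measure, 16 were singled out. For the difference between genotypes in the 96 h change, edgeR called 0 genes (702 at an unadjusted p under 0.05) and DESeq2 called 9.

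LKO replicate 1 at 0 h held the acute-phase transcripts Saa1 at 658 CPM, against 24.3 to 53.5 CPM in the other LKO livers, and Saa2 at 171 CPM, against 2.73 to 9.07 CPM. The same liver held Tat at 5789 CPM (1682 to 2174 CPM in the others), Clec4f at 164 CPM (65.2 to 80.3 CPM) and Txnip at 169 CPM (200 to 205 CPM). LKO replicate 4 held Lgals1 at 17.1 CPM (7.24 to 8.29 CPM), Col3a1 at 25.8 CPM (15.2 to 16.9 CPM), Cps1 at 3187 CPM (4330 to 4460 CPM) and Hdc at 4.98 CPM (8.79 to 8.88 CPM).

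Among control livers at 0 h, replicate 1 held Acat2 at 48.8 CPM (38.1 to 39.9 CPM in the others) and Vwf at 6.52 CPM (9.2 to 9.49 CPM). Control replicate 2 held Pck1 at 6874 CPM (4861 to 5153 CPM) and Top2a at 0.485 CPM (1.01 to 1.08 CPM). Control replicate 3 held Chrna4 at 0.749 CPM (0.277 to 0.356 CPM). Control replicate 4 held Cyp2b9 at 106 CPM (0 to 12.7 CPM) and Col1a1 at 9.85 CPM (4.66 to 5.49 CPM).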

How the results depend on the processing

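The 90 calls of 96 h against 0 h (68.9% higher) became 525 by DESeq2 (257 higher and 268 lower, 86 of the 90 retained), 395 with the 0 h livers of the other cohort added, 56 with library size alone, 55 in the fit of 18 libraries, and 49 with the count column of the other strand (column 4). Leaving out 1 library at a time gave 10 to 92 calls. RLE scaling, the other filters and no fold limit gave 90 to 119. The 3448 genes with an interval within 1.5-fold became 8541 at a limit of 2-fold, and 857 to 3712 with 1 library left out. For the difference between genotypes, the count of 0 became 9 by DESeq2. Without 1 of the 96 h pools that difference could not be fitted. The 301 calls of 96 h against 72 h became 488 by DESeq2 and 819 with the 4 pools alone, and 36 to 324 without 1 pool. The cause of these shifts was not tested.

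With a replicate block for the number of each 0 h liver, 14 genes were called (12 higher and 2 lower). Deviations of same-numbered livers correlated at -0.341, -0.163, 0.0652 and 0.2. Whether such livers shared more than a number cannot be read from so few values.

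None of 57 called genes named changed sign. Another, 4930404H11Rik, was not among them and had too few counts to be tested without the LKO pool. Among genes not called, values near 0 did: Ctnnb1 -0.012918, Cyp1a2 -0.0137 and Slc30a10 -0.0018668 with library size alone, Cps1 -0.013979 and Cyp1a2 -0.0079638 with 18 libraries, Map3k8 -0.28271 and Slc30a10 -0.0064483 in column 3, and Slc30a10 -0.052694 in column 4. With 1 library left out the log2 values ran from -0.3813 to 1.1405 for Ccnd1, -0.45623 to 0.92792 for Clec4f, -0.37013 to 0.38014 for Cps1, -0.23779 to 0.23664 for Ctnnb1, -0.059972 to 0.079575 for Cyp1a2, -0.18452 to 2.7605 for Cyp2b9, -0.27975 to 3.7621 for Lcn2, -0.00096109 to 0.90321 for Pcna, -2.2666 to 3.7377 for Saa1, -2.4931 to 5.4666 for Saa2 and -0.2047 to 0.22739 for Slc30a10. Depth limits genes under about 1 CPM.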

Other observations

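A number of the 63 called genes outside the lists have known roles close to those of the lists, and the following were chosen after their values were seen. Acat2, the thiolase that feeds acetoacetyl-CoA into sterol synthesis, was at 38.1 to 53.7 CPM at 0 h and at 69.5 and 95.7 CPM in the control and LKO pools (log2 fold change 0.93 ± 0.16, adjusted p = 0.0259). Pgd, an enzyme of the pentose phosphate pathway that yields NADPH, rose by 0.89 ± 0.17 on the log2 scale (adjusted p = 0.0373), Cth, which makes cysteine from cystathionine, by 0.87 ± 0.17 (adjusted p = 0.0407), and Umps, which completes pyrimidine synthesis, by 0.67 ± 0.14 (adjusted p = 0.0469). Ptgr1, a reductase of lipid aldehydes and prostaglandins, was at 2.45 to 3.44 CPM at 0 h and at 7.52 and 9.21 CPM in the pools (1.51 ± 0.21, adjusted p = 0.0133). Pcolce, an enhancer of collagen processing, rose by 0.91 ± 0.16 on the log2 scale, Efemp2, a fibulin of elastic fibres, by 1.09 ± 0.23, Tgfbi, a matrix protein induced by TGFβ, by 1.0 ± 0.20, and Anxa2, a phospholipid-binding annexin, by 1.04 ± 0.19 (adjusted p = 0.0332, 0.0432, 0.0407 and 0.0332 in that order), but Efemp2 was called in 0 of the 10 fits that left out 1 library.

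Rps2, a ribosomal protein gene with processed copies in the genome that may share its reads, was at 759.7 CPM in the control pool and 360.2 CPM in the LKO pool against 209 to 304 CPM at 0 h (1.20 ± 0.23, adjusted p = 0.0383). Among further decreases, Slc27a2, a fatty acid transporter and very long chain acyl-CoA synthetase, went from 1375 to 1832 CPM to 1063 and 745 CPM (-0.81 ± 0.14, adjusted p = 0.0407). Lpin2, a phosphatidate phosphatase, fell with a log2 fold change of -1.02 ± 0.18 (adjusted p = 0.0407), and Mlxip, the glucose-sensing factor MondoA that is known to activate Txnip, with -0.99 ± 0.18 (adjusted p = 0.0432). Without the control pool Ptgr1 alone of the genes named in these paragraphs was called, and without the LKO pool Rps2 alone. The log2 fold change of Rps2 was 0.56 without the control pool, and that of Cth was 0.56 without the LKO pool.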
